A study of Mus musculus with 27 samples.

Results

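The enzymes described here are the antioxidant enzymes *Sod1*, *Sod2*, *Cat*, *Gpx1*, *Gpx4*, *Prdx3*, *Prdx5*, *Prdx6*, *Txn2* and *Txnrd2*, chosen by symbol from the gene names printed in the array files. These 10 genes, of 35527 on the array, were read by 17 of its 55681 probes. At least 1 probe of each of the 10 passed the filter on available values, 14 probes in all, and 16636 genes were tested in the same fit. The measurements were made in single myofibers, the multinucleated contractile cells of skeletal muscle, picked by hand after collagenase digestion of the tibialis anterior. RNA of each myofiber was amplified by PCR and hybridised alone to a 1-colour Agilent mouse array, 27 arrays in all. The study asked what loss of the survival motor neuron gene *Smn1* in muscle does to myofiber transcripts, and what transplanted stem cells do to them afterwards.

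There were 8 WT myofibers from 2 mice (4 and 4), 12 Smn1deltaSKM myofibers from 3 mice (4 each) and 7 Smn1deltaSKM+AFS myofibers from 2 mice (4 and 3). Smn1deltaSKM mice carry HSA-Cre, a Cre driven by the human alpha-skeletal actin promoter and hence active in myofibers, together with homozygous Smn F7 alleles, so that exon 7 of *Smn1* is removed in these cells and not in the rest of the mouse. Smn1deltaSKM+AFS mice have that genotype and had also received amniotic fluid stem cells, sorted for GFP and c-kit, through the tail vein. The mice were male. The labels give an age of 3 months for every sample, while the methods place the injection at that age and the isolation of the myofibers a month after it, so the age of the treated mice is not settled. The methods name C57BL/6 GFP+ mice as the second source of myofibers, whereas elsewhere the controls are called littermates. The study's text gives, in places, other numbers of treated myofibers and mice than the labels, which were followed here. The share of donor nuclei in a treated myofiber was not analysed here.

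Superoxide leaks from the respiratory chain and from oxidases. Superoxide dismutases turn it into hydrogen peroxide, which catalase, glutathione peroxidases and peroxiredoxins then reduce to water. Peroxiredoxins are recharged by thioredoxins, which thioredoxin reductases keep reduced with electrons from NADPH, and mitochondria hold their own set of these proteins. Skeletal muscle, with its high and changing oxygen use, relies on all of them, and several related genes are induced by the transcription factor NRF2, encoded by *Nfe2l2*.

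The results turn on 6 probes of 4 members. The first 30 of the 60 bases of each are shown in lower case, 5′ to 3′ in the sense of the transcript, with the mm9 position of the whole probe as the files give it. For *Sod2* and *Cat* both probes that passed are shown, because their differences were unequal.

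Sod1 (chr16:90226509-90226568, plus strand): cctgtgtggtctgagtctcagactcatctg
Sod2, brighter probe (chr17:13208074-13208133, plus strand): ggctggtttatagtagtgtagagcattgca
Sod2, dimmer probe (chr17:13231828-13231887, plus strand): tctttcagtaatgtgaggttacctgcttta
Cat, brighter probe (chr2:103294487-103294546, minus strand): tggtctggtatatatacaatacaacacaca
Cat, dimmer probe (chr2:103297086-103300428, minus strand): aacagtgctaatgaagacaatgtcactcag
Prdx3 (chr19:60940148-60940207, minus strand): gcacatagcaccagcacttaatggaagctt

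The dimmer *Cat* probe spans 3343 bases of the genome and thus crosses a splice junction, and the dimmer *Sod2* probe, designed on a cDNA clone, starts 23754 bases from the brighter one. Whether that probe reads the same transcript was not tested.

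A level is the log2 of the scanner's processed signal minus the 75th percentile of that log2 signal on the same array. Levels of different probes are not compared with each other. Group means are means of the mouse means, with the SD over mice, and differences are between those group means in limma, with Benjamini-Hochberg adjustment over all genes tested and a call at an adjusted p under 0.05. All levels are relative to the other transcripts of a myofiber, and less RNA in all cannot be told apart from an equal amount of it. Of the 2 *Smn1* probes, 1 was lower by 1.68 in Smn1deltaSKM (limma, difference -1.68, adjusted p = 0.0200) and the other differed by 0.19 (adjusted p = 0.716), and the position of these probes relative to exon 7 was not settled here. The WT arrays shared no slide and no scan day with the other groups, so those batches and the genotype cannot be told apart. Arrays of Smn1deltaSKM mouse 1 correlated with those of the other 2 mice of the group at a mean r of 0.878, against 0.966 between mice 2 and 3. With WT mouse 1 left out limma called 0 of all genes between Smn1deltaSKM and WT, and with WT mouse 2 left out 4, against 3656 with both, so each call in this comparison rests on both WT mice.

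**Figure D1:**
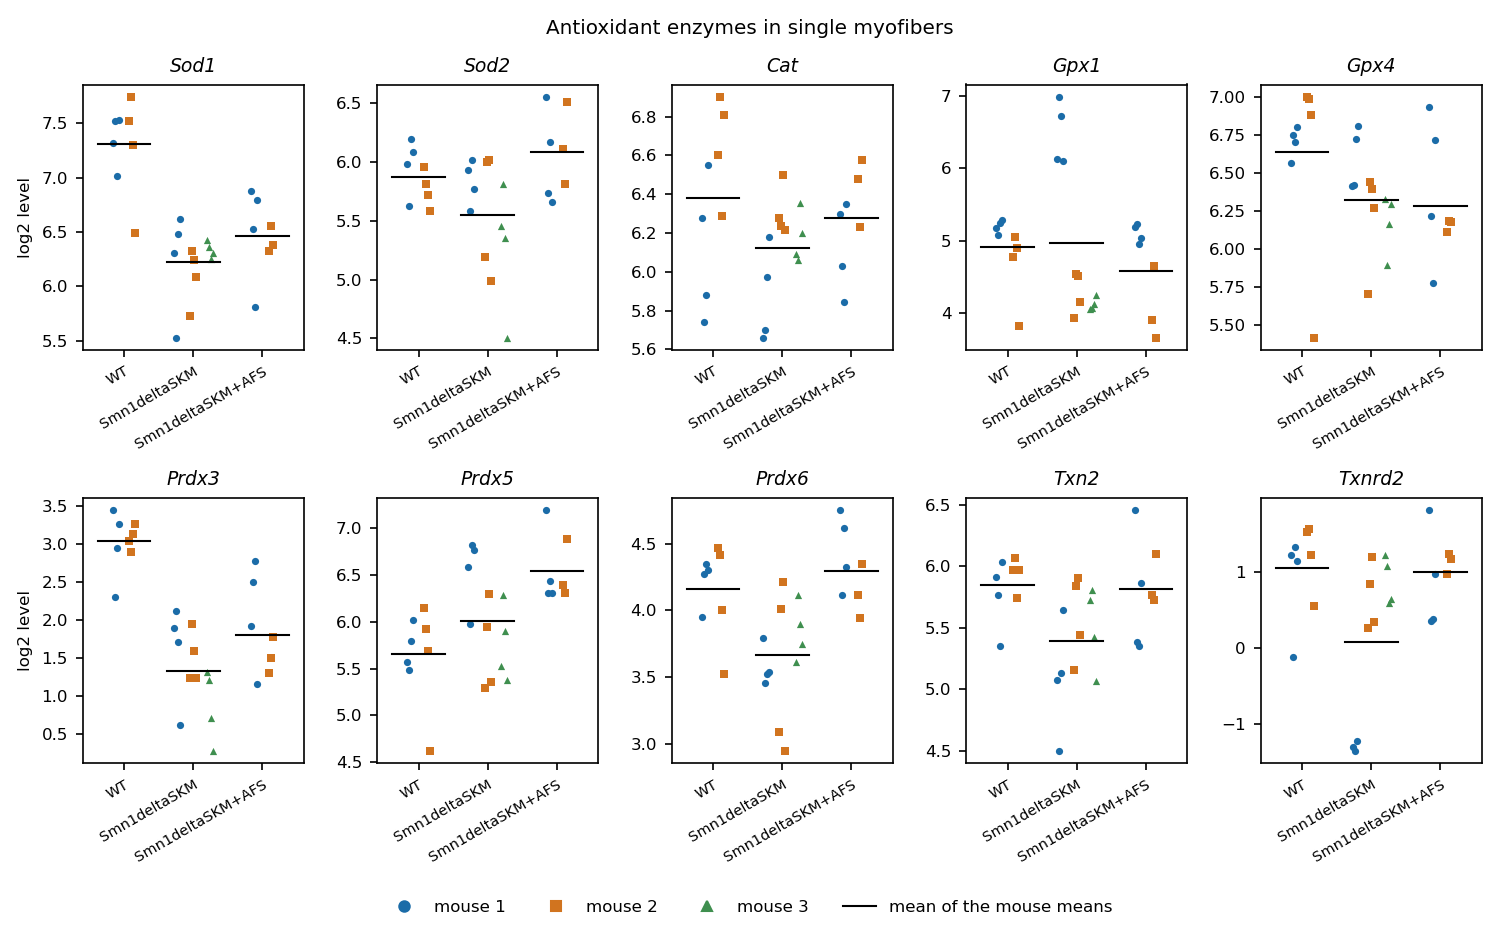
Log2 level of each of the 10 antioxidant enzymes in every myofiber (1 point each; the shape and colour give the mouse within its group; the bar is the mean of the mouse means). The *Prdx3* points of Smn1deltaSKM lie between 0.27 and 2.12, below all 8 WT points, and the 4 *Gpx1* points of Smn1deltaSKM mouse 1 lie apart from the rest.

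*Prdx3* and *Sod1* were lower in Smn1deltaSKM than in WT myofibers, by 3.28-fold and 2.12-fold. They were the 2 of 10 members called, both lower, against 22% of all genes called in either direction and 13.9% called lower. That split of 2316 lower among 3656 calls depends on the scaling, with 853 of 2802 lower when the 75th percentile was taken over probes with a value on every array. No member was called higher. Of the other members, 6 had a lower and 2 a higher group mean in Smn1deltaSKM, although *Sod2*, *Cat* and *Gpx4* turned to at most 0.04, 0.24 and 0.019 under other scalings of the arrays. The median difference of all 10 was -0.39, against -0.11 over all genes tested and -0.58 over 773 genes of mitochondrial proteins, a list that holds all 10 members. In 5 of the 10 (*Sod1*, *Prdx3*, *Prdx6*, *Txn2* and *Txnrd2*) the mean of every Smn1deltaSKM mouse lay below that of every WT mouse, which held for 33.2% of all genes.

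**Figure D2:**
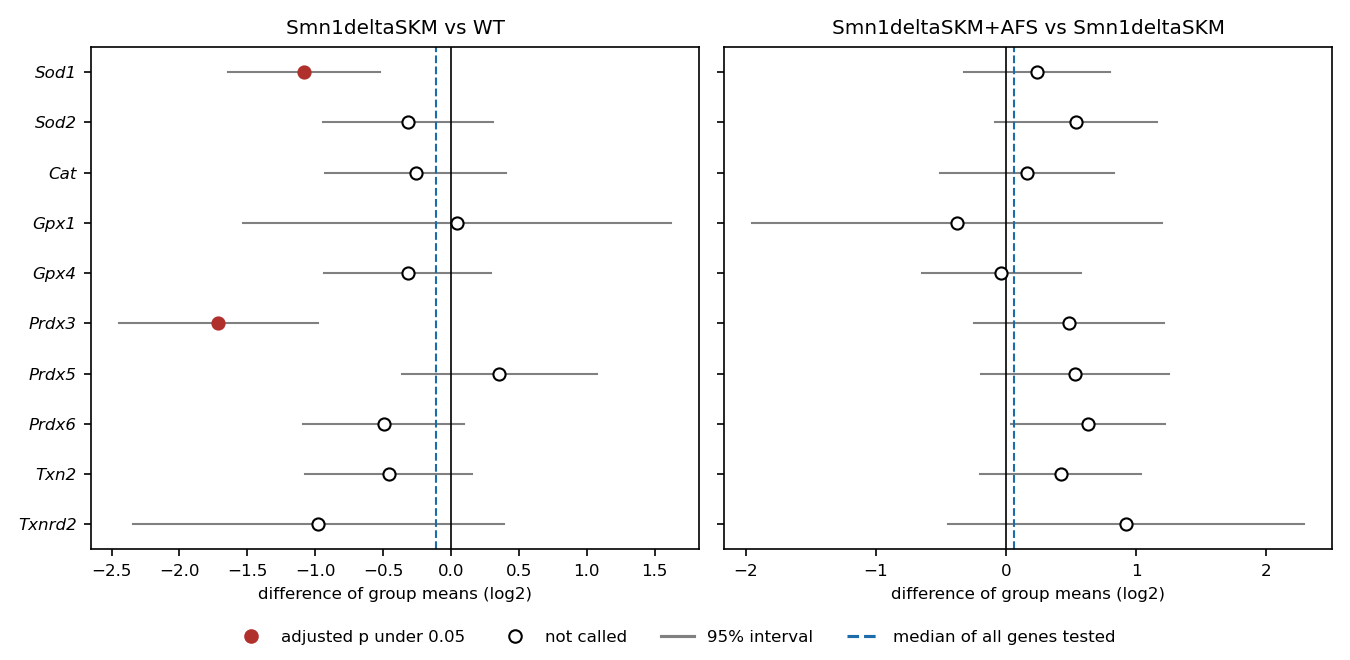
Differences of the group means of the 10 antioxidant enzymes on the log2 scale with their 95% intervals, for Smn1deltaSKM minus WT and Smn1deltaSKM+AFS minus Smn1deltaSKM (red, adjusted p under 0.05; white, not called; dashed line, median of all genes tested). Red points appear only for *Prdx3* and *Sod1* in Smn1deltaSKM minus WT, at -1.71 and -1.08.

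*Sod1* encodes the copper and zinc superoxide dismutase of the cytosol and the mitochondrial intermembrane space. Its levels were 6.49, 7.42 and 7.75 (lowest, median and highest of 8) in WT, 5.53, 6.31 and 6.62 (of 12) in Smn1deltaSKM and 5.81, 6.52 and 6.88 (of 7) in Smn1deltaSKM+AFS. A single WT myofiber, at 6.49, reached into the range of the Smn1deltaSKM myofibers. The group means were 7.31 ± 0.058 (SD, n = 2 mice), 6.22 ± 0.12 (n = 3) and 6.46 ± 0.058 (n = 2). The difference between Smn1deltaSKM and WT was -1.08 (SE 0.245, 95% interval -1.65 to -0.52, limma adjusted p = 0.0218). The call was lost in 10 of 22 alternative settings, with differences between -1.14 and -0.52 over all 22 and adjusted p-values of up to 0.171. Among those 10 were quantile normalisation (-0.75, adjusted p = 0.0810) and leaving out Smn1deltaSKM mouse 2 (-1.02, adjusted p = 0.0705) or mouse 3 (-1.14, adjusted p = 0.0515).

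*Sod2*, the manganese superoxide dismutase of the mitochondrial matrix, gave unequal answers from its 2 probes. By the brighter probe, levels were 5.58, 5.88 and 6.19 in WT, 4.51, 5.67 and 6.02 in Smn1deltaSKM and 5.66, 6.11 and 6.55 in Smn1deltaSKM+AFS, and all 3 groups overlapped. The difference between Smn1deltaSKM and WT, -0.32 (95% interval -0.94 to 0.31, limma adjusted p = 0.414), was not called. By the dimmer probe, WT lay at 2.62, 3.1 and 3.73, Smn1deltaSKM at -0.09, 1.68 and 2.68 and Smn1deltaSKM+AFS at 1.89, 2.50 and 2.88. Only the highest Smn1deltaSKM myofiber and the lowest WT myofiber crossed, and the Smn1deltaSKM mouse means were spread at 0.71, 1.71 and 2.35. When each probe was tested on its own, the dimmer one was lower in Smn1deltaSKM by 1.54 (difference -1.54, SE 0.457, limma adjusted p = 0.0457). When the probes of a gene were averaged, *Sod2* was called lower (-0.93, adjusted p = 0.0441), and 3 members were then called in all.

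Catalase, the peroxisomal enzyme that splits hydrogen peroxide, showed the same division between probes. The brighter *Cat* probe lay at 5.74, 6.42 and 6.90 in WT, 5.66, 6.19 and 6.50 in Smn1deltaSKM and 5.84, 6.30 and 6.58 in Smn1deltaSKM+AFS. These groups overlapped almost wholly, and the difference between Smn1deltaSKM and WT was -0.26 (95% interval -0.93 to 0.41, limma adjusted p = 0.535). The probe across the splice junction lay at 1.12, 1.86 and 2.98 in WT, -0.49, 0.61 and 1.5 in Smn1deltaSKM and 0.12, 0.64 and 1.29 in Smn1deltaSKM+AFS, with some overlap. It was lower in Smn1deltaSKM than in WT (difference -1.35, SE 0.395, 95% interval -2.26 to -0.45, limma adjusted p = 0.0438). Tested probe by probe, 4 of the 14 member probes were thus called lower (the *Sod1* and *Prdx3* probes and the dimmer *Sod2* and *Cat* probes), against 14.1% of all 22154 probes. With the mean of the probes, *Cat* differed by -0.81 and was not called (limma adjusted p = 0.0537). In each unequal pair, whose sequences are given above, the dimmer probe was the one called. Both of these calls were near the threshold, since the dimmer *Cat* probe lost its call in 13 of 18 alternative settings (differences between -1.74 and -0.88, adjusted p-values of up to 0.308) and the dimmer *Sod2* probe in 11 of 18 (between -1.97 and -1.10, adjusted p-values of up to 0.221). With Smn1deltaSKM mouse 2 left out, both calls were lost (limma adjusted p = 0.115 for *Cat* and 0.0896 for *Sod2*), with mouse 3 left out that of *Cat* (adjusted p = 0.115), and with either Smn1deltaSKM+AFS mouse left out of the common spread both (adjusted p = 0.0686 and 0.0704).

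**Figure D3:**
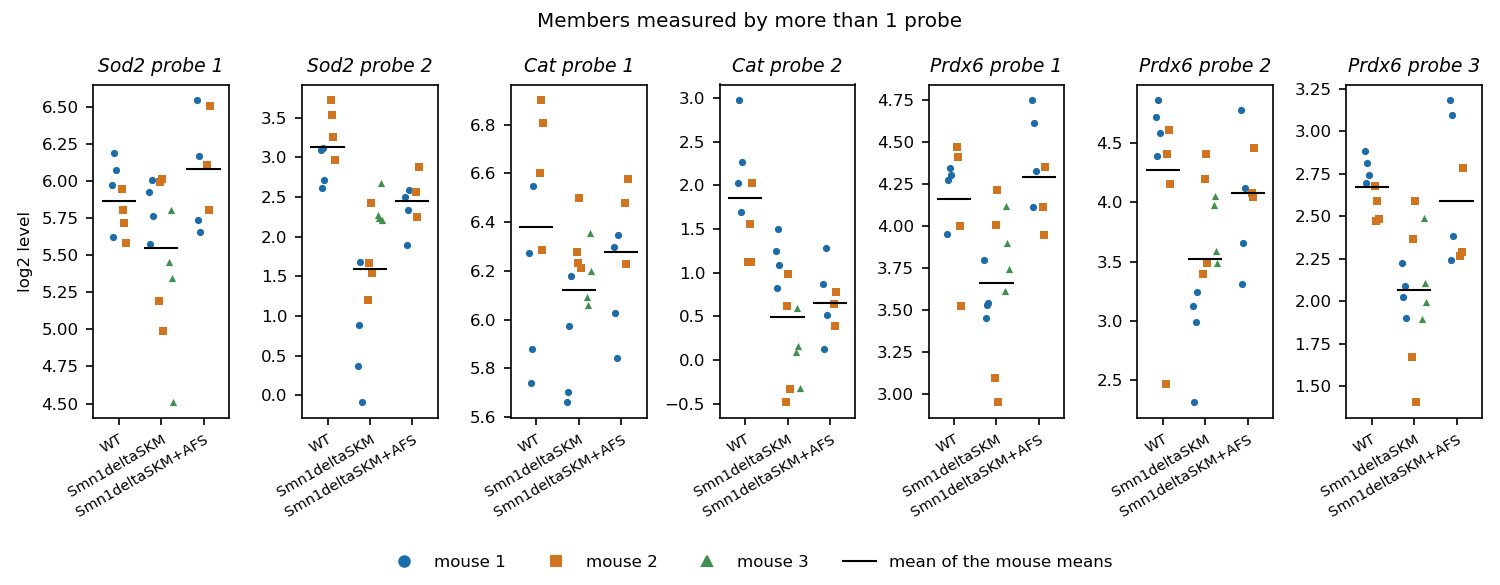
Log2 level in every myofiber for the 7 probes of *Sod2*, *Cat* and *Prdx6* that passed the filter (points, shapes and bars as in the plot of all members; each panel has its own axis). For *Sod2* and *Cat* the second, dimmer probe separates WT from Smn1deltaSKM more than the first, with group means of 3.13 against 1.59 for *Sod2* and 1.85 against 0.50 for *Cat*.

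The glutathione peroxidases are selenoproteins that reduce peroxides with glutathione, *Gpx1* soluble peroxides and *Gpx4* lipid peroxides in membranes. *Gpx1* levels were 3.83, 5.06 and 5.29 in WT, 3.93, 4.38 and 6.99 in Smn1deltaSKM and 3.66, 4.96 and 5.23 in Smn1deltaSKM+AFS. The upper end of Smn1deltaSKM came from 1 animal. The 4 myofibers of Smn1deltaSKM mouse 1 lay at 6.13, 6.99, 6.72 and 6.10, above all other myofibers of the study, and the mouse means were 6.48, 4.28 and 4.13. The difference between Smn1deltaSKM and WT was 0.05 (95% interval -1.53 to 1.62, limma adjusted p = 0.966), and it was -0.71 (adjusted p = 0.147) without that mouse. Its myofibers were hybridised on 2 slides and scanned on 2 days, and the value of 6.10 came from the array that shared neither with the other 3. *Gpx4* lay at 5.42, 6.78 and 7.00 in WT, 5.70, 6.36 and 6.81 in Smn1deltaSKM and 5.78, 6.19 and 6.94 in Smn1deltaSKM+AFS. The groups overlapped, with a difference of -0.32 between Smn1deltaSKM and WT (95% interval -0.93 to 0.29, limma adjusted p = 0.402).

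Among the peroxiredoxins, which reduce peroxides through a reactive cysteine, only *Prdx3* was called. *Prdx3*, the peroxiredoxin of the mitochondrial matrix, lay at 2.30, 3.08 and 3.44 in WT, 0.27, 1.28 and 2.12 in Smn1deltaSKM and 1.15, 1.77 and 2.78 in Smn1deltaSKM+AFS. Every Smn1deltaSKM myofiber was below every WT myofiber, whereas the treated myofibers overlapped both. The mouse means were 2.98 and 3.08 in WT, 1.58, 1.5 and 0.88 in Smn1deltaSKM and 2.08 and 1.52 in Smn1deltaSKM+AFS. The difference between Smn1deltaSKM and WT was -1.71 (SE 0.320, 95% interval -2.45 to -0.98, limma adjusted p = 0.0139). It stayed called in 20 of 22 alternative settings, between -2.04 and -1.34, and was lost only without WT mouse 1 (-1.76, adjusted p = 0.133) or WT mouse 2 (-1.67, adjusted p = 0.0868). The array carries this probe in 10 spots, whose SD within an array had a median of 0.0808 and a maximum of 0.231, while the SD between myofibers of 1 mouse was 0.37, 0.52 and 0.58 in the 3 groups. The spots of an array share the amplified material of 1 myofiber, so their SD leaves out the amplification.

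*Prdx5*, a peroxiredoxin found in mitochondria, peroxisomes and cytosol, was the member with the largest positive difference from WT. It lay at 4.62, 5.74 and 6.14 in WT, 5.29, 5.96 and 6.82 in Smn1deltaSKM and 6.30, 6.39 and 7.19 in Smn1deltaSKM+AFS. All treated myofibers were above all WT myofibers, and those of Smn1deltaSKM overlapped both groups. Between Smn1deltaSKM and WT the difference was 0.36 (95% interval -0.36 to 1.08, limma adjusted p = 0.426). *Prdx6*, a cytosolic peroxiredoxin that works with glutathione and also acts on phospholipids, lay at 3.53, 4.29 and 4.47 in WT, 2.95, 3.68 and 4.21 in Smn1deltaSKM and 3.95, 4.33 and 4.75 in Smn1deltaSKM+AFS. The ranges overlapped, and the difference between Smn1deltaSKM and WT, -0.50 (95% interval -1.09 to 0.10, limma adjusted p = 0.189), was not called. The other 2 *Prdx6* probes that passed gave -0.76 and -0.61, neither called.

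*Txn2* and *Txnrd2* encode the thioredoxin of mitochondria and the selenoprotein reductase that recharges it. *Txn2* lay at 5.35, 5.94 and 6.07 in WT, 4.50, 5.43 and 5.90 in Smn1deltaSKM and 5.35, 5.76 and 6.46 in Smn1deltaSKM+AFS. The groups overlapped, and Smn1deltaSKM differed from WT by -0.46 (95% interval -1.08 to 0.16, limma adjusted p = 0.238). *Txnrd2* had a value on 11 of 12 Smn1deltaSKM arrays and on all others, at -0.12, 1.23 and 1.58 in WT, -1.36, 0.60 and 1.23 in Smn1deltaSKM and 0.36, 0.98 and 1.83 in Smn1deltaSKM+AFS. As with *Gpx1*, 1 animal stood apart, since the mean of Smn1deltaSKM mouse 1 was -1.30 while mice 2 and 3 were at 0.67 and 0.89. The difference between Smn1deltaSKM and WT was -0.98 (95% interval -2.34 to 0.39, limma adjusted p = 0.255), and -0.28 (adjusted p = 0.360) without that mouse.

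The members varied both between mice and between myofibers of the same mouse. The SD between mouse means had a median over the 10 members of 0.107 in WT, 0.270 in Smn1deltaSKM and 0.175 in Smn1deltaSKM+AFS, and reached 1.32 in Smn1deltaSKM for *Gpx1*. Between myofibers of 1 mouse the corresponding medians were 0.38, 0.36 and 0.39. With 2 or 3 mice in a group these SDs are rough, and their difference was not tested.

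Comparison of Smn1deltaSKM+AFS with Smn1deltaSKM addressed whether levels differed after the stem cells were given. None of the 10 members was called, against 0% of all 16636 genes by limma, of which 533 had an unadjusted p under 0.05. The group means of 8 of 10 members were higher in Smn1deltaSKM+AFS, of which *Sod1* and *Cat* turned to -0.023 and -0.11 with quantile normalisation. The median difference was 0.45 against 0.058 over all genes and 0.36 over the mitochondrial list. *Prdx6* was the member with an unadjusted p under 0.05, at a difference of 0.63 (95% interval 0.04 to 1.22, p = 0.0396, limma adjusted p = 0.9997). Its other 2 probes gave 0.56 and 0.52. The mean of every treated mouse lay above that of every Smn1deltaSKM mouse for 4 of 10 members, *Sod1*, *Sod2*, *Prdx6* and *Txn2*, which held for 12.4% of all genes.

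For *Prdx3* the difference between treated and untreated mice was 0.48 (95% interval -0.25 to 1.22), for *Sod2* 0.54 (-0.09 to 1.16), for *Prdx5* 0.53 (-0.19 to 1.25), for *Txn2* 0.42 (-0.20 to 1.04) and for *Sod1* 0.24 (-0.32 to 0.80), each with a limma adjusted p of 0.9997. *Txnrd2*, at 0.92 (-0.44 to 2.29), rested on the low values of Smn1deltaSKM mouse 1. *Cat*, *Gpx4* and *Gpx1* stood at 0.16 (-0.51 to 0.83), -0.04 (-0.65 to 0.58) and -0.38 (-1.95 to 1.20), and the last became 0.38 without Smn1deltaSKM mouse 1. All 9 of these intervals include 0, and each reaches to 0.58 or above. Both groups shared 1 slide and 2 scan days. Within the shared slide, with 1 myofiber of each group, 6 of 10 members were higher in the treated one (median 0.17), within scan day 1, which holds 1 mouse of each group, 7 of 10 (median 0.14) and within scan day 2 9 of 10 (median 0.48). *Prdx6* was higher in all 3, by 0.78, 0.77 and 0.69, and *Prdx3* by 0.54, 0.73 and 0.53. These comparisons are not independent, since the shared slide was scanned on day 2 and holds the same mouse of each group as scan day 1. No other slide held both groups, so among those slides the slide and the treatment cannot be told apart within a day.

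Against WT, which shares no array batch with them, Smn1deltaSKM+AFS myofibers had 3 of 10 members with an unadjusted limma p under 0.05. Over all genes, 4936 of 16636 had such a p. By limma 0 of the 10 were called, where 7.81% of all genes were called. Those 1299 calls fell to 0 without WT mouse 1, WT mouse 2 or Smn1deltaSKM+AFS mouse 1, to 109 without Smn1deltaSKM+AFS mouse 2 and to 543 and 514 without Smn1deltaSKM mouse 2 or 3, and rose to 4836 without Smn1deltaSKM mouse 1. The 3 members were *Prdx3* at -1.23 (95% interval -2.03 to -0.43, adjusted p = 0.0670), *Sod1* at -0.84 (-1.46 to -0.23, adjusted p = 0.0856) and *Prdx5* at 0.89 (0.10 to 1.68, adjusted p = 0.132). *Prdx3*, *Sod1* and *Prdx5* were called, at the same differences, when Smn1deltaSKM mouse 1 was left out of the common estimate of the spread (adjusted p = 0.0229, 0.0280 and 0.0218). The remaining 7 members lay between -0.36 for *Gpx4* and 0.22 for *Sod2*, and the median of all 10 was -0.08 against -0.044 over all genes.

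The enzymes work with a larger set of genes, which was described from 9 lists holding 77 genes on the array, 61 of them tested. Between Smn1deltaSKM and WT, limma called 4 of the 61 higher and 16 lower, where 8.05% of all genes were called higher, 13.9% lower and 22% in either direction, and their median difference was -0.65, against -0.11 over all genes. The lists were chosen with earlier results of these data known, so these shares describe the lists and do not test them. Among 14 tested genes of the superoxide, peroxiredoxin and thioredoxin systems, 1 rose and 3 fell. The one that rose was *Srxn1*, sulfiredoxin, which repairs overoxidised peroxiredoxins, at a difference of 4.21 (18.5-fold, limma adjusted p = 0.0206). *Txnip*, an inhibitor of thioredoxin that also holds back glucose uptake, fell by 2.87 (adjusted p = 0.0105), and *Glrx3*, a glutaredoxin that handles iron-sulfur clusters, fell by 1.64 (adjusted p = 0.0138). Of 14 tested genes of glutathione synthesis and use, 4 fell and none rose, with differences of -2.46 for *Gpx3*, the secreted glutathione peroxidase, -1.81 for *Gstm1*, a glutathione transferase, and -1.27 for *Gpx7*, a peroxidase of the endoplasmic reticulum.

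**Figure D4:**
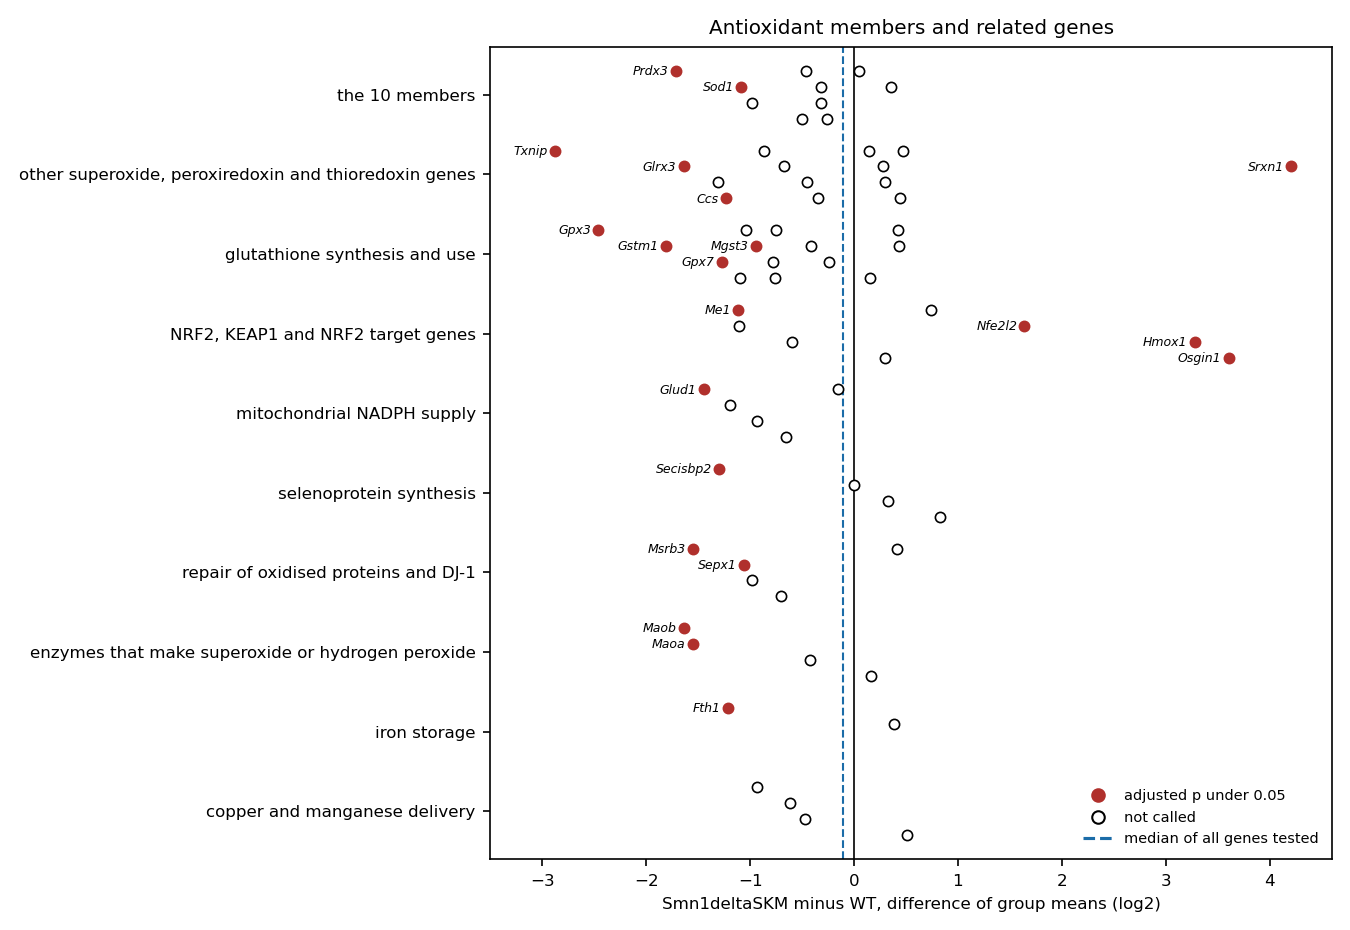
Difference between Smn1deltaSKM and WT on the log2 scale for the 10 members and for the tested genes of the 9 lists that are reported here (1 point a gene; red with its symbol, adjusted p under 0.05; white, not called; dashed line, median of all genes tested). Points to the right of 0 in red are *Srxn1* at 4.21, *Osgin1* at 3.61, *Hmox1* at 3.28 and *Nfe2l2* at 1.64.

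The NRF2 list, too, was chosen with earlier results of these data known. Of its 8 tested genes, 3 were called higher and 1 lower, where 8.05% of all genes were called higher. The lower one, named after its value was seen, was *Me1*, the cytosolic malic enzyme that makes NADPH (-1.11, limma adjusted p = 0.0499). *Nfe2l2* levels were -0.20, 0.57 and 1.47 in WT, 0.61, 2.36 and 3.21 in Smn1deltaSKM and 1.02, 2.20 and 2.79 in Smn1deltaSKM+AFS, so that both groups labelled with the Smn1deltaSKM genotype lay mostly above WT. Its difference between Smn1deltaSKM and WT was 1.64 (SE 0.389, limma adjusted p = 0.0243). *Hmox1*, heme oxygenase, lay at -0.58, 1.70 and 2.60 in WT and at 3.50, 4.78 and 5.89 in Smn1deltaSKM, which do not overlap, a 9.72-fold difference (3.28, adjusted p = 0.0153). *Osgin1*, an oxidative stress response gene, differed by 3.61 (adjusted p = 0.0251). *Keap1*, which holds NRF2 for degradation, differed by -0.59 and was not called (adjusted p = 0.137). *Srxn1* lay at 0.04, 0.75 and 1.38 in WT, 2.88, 5.25 and 6.18 in Smn1deltaSKM and 0.96, 5.51 and 6.27 in Smn1deltaSKM+AFS, with treated mouse means of 5.89 and 2.91. In the treated group the second mouse was thus nearer to WT for *Srxn1*, as it was for *Hmox1* (5.79 and 3.23) and *Osgin1* (6.0 and 3.54).

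**Figure D5:**
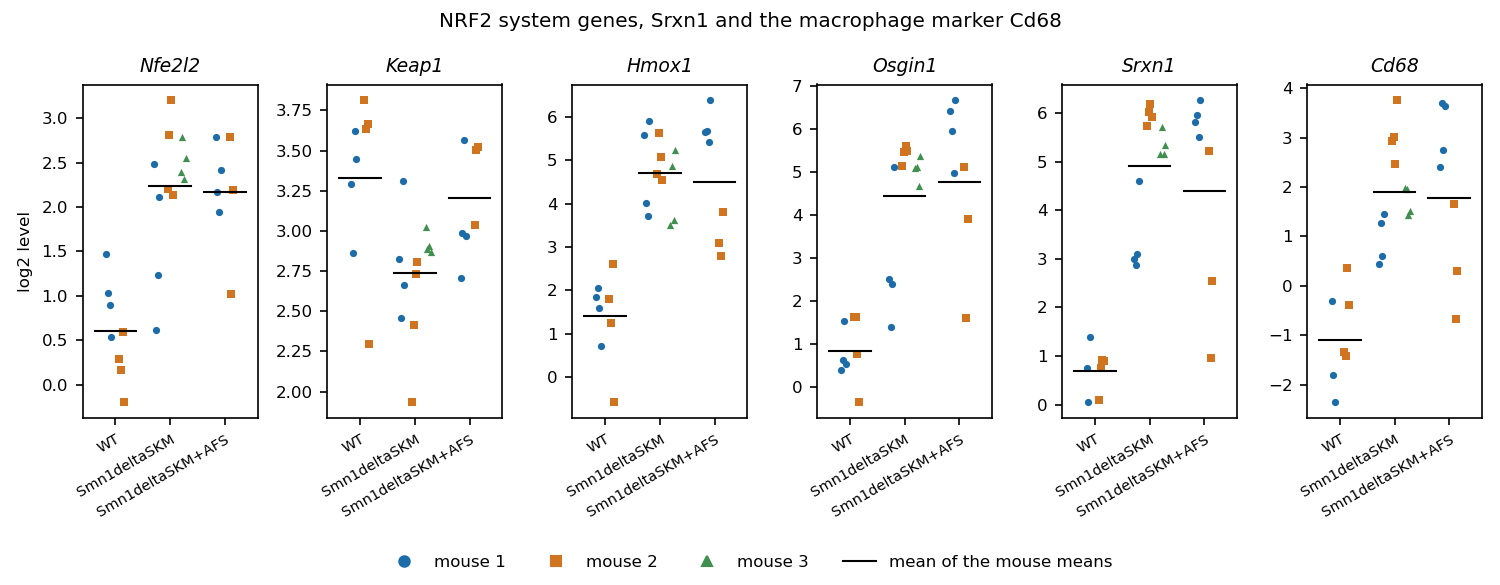
Log2 level in every myofiber of *Nfe2l2*, *Keap1*, *Hmox1*, *Osgin1*, *Srxn1* and the macrophage marker *Cd68* (points, shapes and bars as in the plot of all members). All Smn1deltaSKM points of *Hmox1* and *Srxn1* are above all WT points, and treated mouse 2 is below treated mouse 1 for both and for *Cd68*.

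In the other lists all calls between Smn1deltaSKM and WT were in the lower direction, where 13.9% of all genes were called lower and 8.05% higher. That split of all genes depends on the scaling, with 853 of 2802 calls lower under the 75th percentile over probes with a value on every array. In mitochondrial NADPH supply 1 of 5 tested genes fell, *Glud1*, glutamate dehydrogenase (-1.45), and in selenoprotein synthesis 1 of 4, *Secisbp2*, which binds the element that directs selenocysteine insertion (-1.30). Of 5 genes that repair oxidised proteins, 2 fell, the methionine sulfoxide reductases *Msrb3* (-1.55) and *Sepx1*, now named *Msrb1* (-1.06). Of 5 enzymes that make superoxide or hydrogen peroxide, 3 fell, among them the monoamine oxidases *Maob* (-1.63) and *Maoa* (-1.55). Iron storage had 1 of 2 lower, *Fth1*, the ferritin heavy chain (-1.21), and copper and manganese delivery 0 of 4 by limma, with a median of -0.54. Between Smn1deltaSKM+AFS and Smn1deltaSKM none of the 61 was called, against 0% of all genes. Between Smn1deltaSKM+AFS and WT 2 were higher (*Hmox1*, 3.09, and *Osgin1*, 3.93) and 4 lower (*Gpx3*, -2.92, among them), where 7.81% of all genes were called in either direction. Those calls were all lost, as were those of all genes, without WT mouse 1, WT mouse 2 or Smn1deltaSKM+AFS mouse 1. The comparisons with WT share the same WT mice. The calls of *Nfe2l2*, *Srxn1* and *Osgin1* between Smn1deltaSKM and WT were also lost when Smn1deltaSKM mouse 2 was left out (limma adjusted p = 0.0700, 0.0537 and 0.0653) or mouse 3 (adjusted p = 0.0676, 0.0540 and 0.0661), while that of *Hmox1* was lost only with a WT mouse left out. Without Smn1deltaSKM mouse 1, *Srxn1* differed by 4.96 and *Osgin1* by 4.4, both still called. Among the genes named as lower, *Sepx1* lost the call in 12 of 22 alternative settings, *Fth1* in 8, *Msrb3* in 7 and *Maoa* and *Gpx7* in 6 each, and with the mean of its probes *Sepx1* differed by -0.26 (limma adjusted p = 0.459).

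The promoter of *Sod1* is shown because it was the only one of those of the members given here to hold the core of the antioxidant response element, and that of *Nfe2l2* because it holds it too. RefSeq's table for GRCm38.p6 gives the 250 bases before and 50 after a start site for 9 of the 10 members. The core, TGACNNNGC on either strand, stood in 1 of those 9, in 12 of the 59 listed pathway genes with an entry and in 12.4% of all 32851 promoters. Capitals mark the core as found on the printed strand or its complement.

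Sod1 (chr16:90220686-90220734, plus strand, bases -76 to -28 from the start site, core on the minus strand): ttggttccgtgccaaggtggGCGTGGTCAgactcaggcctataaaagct
Nfe2l2 (chr2:75704875-75704913, minus strand, bases -250 to -212, core on the printed strand): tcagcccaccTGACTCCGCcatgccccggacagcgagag

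The letters TGTTTAC of a FOXO site and AAGGTCA of an ERR site were in promoters of 0 of the 9 members, with 3.65% and 4.72% of all promoters holding them. The GC box GGGCGG was in those of 9 of 9 members, of 45 of the 59 listed pathway genes with an entry and in 35.7% of all promoters. Here too members and pathway genes are counted by gene and the shares of all promoters by promoter.

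Markers of myofibers and of other cells were described as well. Myofiber markers were present on nearly all arrays, with summed linear levels of 1491 to 2615 in WT, 1088 to 1790 in Smn1deltaSKM and 1441 to 2106 in Smn1deltaSKM+AFS. Of the 5, 2 were called lower in Smn1deltaSKM, *Mylpf* (-1.99) and *Ckm* (-1.76), a myosin light chain and muscle creatine kinase, where 13.9% of all genes were called lower. Of the 6 macrophage and leukocyte markers, 4 were tested and 2 were called higher, *Cd68* (2.99, limma adjusted p = 0.0369) and *Ptprc* (1.33, adjusted p = 0.0213), where 8.05% of all genes were called higher. The other 2 tested were not called and had lower group means in Smn1deltaSKM than in WT. The median difference of the 4 was 0.60. The summed linear level of the 6 ranged from 198 to 314 in WT, 188 to 260 in Smn1deltaSKM and 230 to 312 in Smn1deltaSKM+AFS. Other markers of the list carry that sum, since the highest log2 levels were 3.77 for *Cd68* and 0.43 for *Ptprc*. It therefore cannot show how these 2 moved. *Emr1*, a macrophage surface receptor, had a value on 2 of 8, 8 of 12 and 3 of 7 arrays, and *Lyz2*, also not tested, on 4, 6 and 4. *Cd68* had mouse means of 0.95, 3.04 and 1.72 in Smn1deltaSKM and of 3.13 and 0.44 in the treated group. In Smn1deltaSKM it was lowest in mouse 1, as were *Srxn1*, *Osgin1* and *Nfe2l2*, whereas *Hmox1*, at 4.80, 4.98 and 4.30, was lowest in mouse 3. The arrays of mouse 1 also stood apart over probes with a value on every array (mean r of 0.878 with the other Smn1deltaSKM mice). The part of macrophages and leukocytes in the levels of these genes was not tested. Of the fiber type myosins, *Myh1* of fast fibers was higher in Smn1deltaSKM (2.20, adjusted p = 0.0224) and varied from -0.66 to 3.69 in WT and from 0.55 to 6.77 in Smn1deltaSKM, and *Myh4* (-0.42) and *Myh7* (-0.08) were not called; the part of fiber type was not tested. Red cell markers summed to 0 to 33.6 in WT, 0.581 to 30.1 in Smn1deltaSKM and 0.824 to 44.4 in Smn1deltaSKM+AFS, with medians of 0.494, 1.26 and 12.9. Of the 6, 1 was tested. It differed by 1.46 between Smn1deltaSKM and WT and by 2.79 between Smn1deltaSKM+AFS and WT, neither called. *Pdgfra* and *Myf5* of the fibroblast and satellite cell lists had no value on any array, and no tested endothelial (2 of 5), fibroblast (2 of 5), satellite cell (1 of 4) or Schwann cell (1 of 4) marker was called. The fibroblast marker *Dcn* nevertheless had a value on 1 of 8 WT, 12 of 12 Smn1deltaSKM and 5 of 7 Smn1deltaSKM+AFS arrays. *Col1a1* had one on 2, 9 and 5, *Col3a1* on 6, 11 and 6 and *Col1a2* on all. Median summed levels of the list were 2.15, 11.2 and 14.9. The sums ranged from 0.576 to 115 in WT, 1.45 to 34.2 in Smn1deltaSKM and 1.78 to 22.4 in Smn1deltaSKM+AFS, so the highest was that of a WT myofiber. None of the 4 adipocyte markers passed the filter. *Lep* had a value on 0 of 8, 9 of 12 and 5 of 7 arrays and *Adipoq* on 3, 11 and 5, whereas *Plin1* had one on 6, 9 and 4 and *Cidec* on 4, 8 and 6. The median summed levels of the list were 0.320, 1.02 and 0.917. The median number of probes with a value on an array also differed, at 25147.5 in WT, 31411 in Smn1deltaSKM and 27412 in Smn1deltaSKM+AFS. Whether these counts of arrays, or those of *Emr1* and *Lyz2*, differ beyond that was not tested. Nor was the part of red cells, fibroblasts and adipocytes in the results.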

How the data were processed

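Per the file headers, the authors scanned each array with Agilent Feature Extraction 10.7.3.1, whose processed signal intensity has the background subtracted and spatial trends of the array removed, with no scaling to other arrays. The value table deposited by the authors holds linear signal made equal in distribution between arrays, and was used as an alternative. Here spots that were not found, not well above background or outliers were left out, log2 intensity was taken (signals under 1 set to 1) and the 75th percentile over all noncontrol spots of the array subtracted. Spots of a probe were averaged, and a probe was kept if 75% or more of the 27 arrays had a value. Genes were represented by their brightest probe. The 7 mouse means entered limma 3.58.1 in R 4.3.3, with group as the only term and 1 spread for the 3 groups. The fit was also run on simulated data, with less spread between mice than estimated here and with planted changes larger than the difference of any member. That run therefore cannot give the error rates of the fit on these data. The unit of replication is the mouse, and p-values cover the spread between 2 or 3 mice.

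The 10 genes, the pathway lists and the rule for named genes (at most 3 called genes a list by size of difference, plus *Nfe2l2* and *Keap1*) were chosen with earlier results of these data known, and some listed genes, such as *Srxn1*, *Osgin1* and *Prdx3*, stand in the study's own tables. Precision is limited by the number of arrays and mice. Mouse numbers only name the mice, which differ between groups. Figures were drawn with matplotlib 3.10.9. Alternatives tried were other scalings, filters and probe summaries, myofibers in place of mice, blocks for mouse, slide, scan day and mouse number, and each mouse left out. Some listed genes were counted and are not reported here by name, and 1 of them is not plotted.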

Additional observations from a re-analysis of the deposited data

Results flagged for a closer look

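Single myofibers stood apart from their group for some members. WT myofiber 8 was the lowest of 8 for *Gpx1* (3.83, the next at 4.78), *Gpx4* (5.42, the next at 6.57) and *Prdx5* (4.62, the next at 5.49), and it was also the WT myofiber that overlapped the Smn1deltaSKM range for *Sod1*. WT myofiber 5 was low for another *Prdx6* probe (2.46, the next at 4.16) and WT myofiber 3 for *Txn2* (5.35, the next at 5.74). These were 5 of 28 groups of values examined, where chance gives about 1 in 20. Groups of values from the same arrays are not independent, and WT myofiber 8 gave those of *Gpx1*, *Gpx4* and *Prdx5*. The 2 rates can therefore not be set against each other.

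Some probes that the comparisons left out had a value on a few arrays. The faintest *Prdx6* probe had one on 1 of 7 Smn1deltaSKM+AFS arrays and 0 of 8 WT arrays. The fainter *Txn2* probe had one on 5 of 12 Smn1deltaSKM arrays and 4 of 7 Smn1deltaSKM+AFS arrays, against 1 of 8 WT arrays. The median number of all probes with a value was also lower on WT arrays (25147.5) than on Smn1deltaSKM (31411) and Smn1deltaSKM+AFS (27412) arrays.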

How the results depend on the processing

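Centring on the median of probes with a value on every array put the median of all genes at 0.10 between Smn1deltaSKM and WT, and the 75th percentile over those probes, an alternative chosen after seeing the data, put it at 0.21, against -0.11. Members called in that comparison went from 2 to 1 with quantile normalisation, normexp, the authors' value table, that 75th percentile, the slide as a random block and the mouse number as a replicate block, to 3 with the mean of a gene's probes, to 5 with myofibers as replicates and to 0 to 2 with a mouse left out. *Prdx3* was the one kept where 1 remained under these scalings and blocks. The median of the members was -0.052 with quantile normalisation, -0.17 with centring, -0.0951 with normexp, -0.037 in the authors' table, -0.0693 with that percentile, -0.71 with the mean of a gene's probes, -0.30 without Smn1deltaSKM myofibers 1 to 3 and -0.48 to -0.39 with a mouse left out. Signs turned for *Sod2* (0.034 with quantile normalisation, 0.040 in the authors' table, 0.00341 with the added percentile), *Cat* (0.12, 0.13 and 0.060, and 0.24 with normexp), *Gpx4* (0.019 in the authors' table, 0.000608 with the added percentile) and *Gpx1* (-0.081 without Smn1deltaSKM myofibers 1 to 3). With a mouse left out, *Cat* ranged from -0.53 to 0.00996 and *Gpx1* from -0.71 to 0.47.

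Between Smn1deltaSKM+AFS and Smn1deltaSKM the count went from 0 to 1 with the slide as a fixed block, also chosen after seeing the data (*Txnrd2*, 2.15, limma adjusted p = 0.0355), which rests on a slide with 1 myofiber of each group, and stayed at 0 with a mouse left out. The median was 0.23 with quantile normalisation, 0.36 with centring, 0.25 with normexp, 0.22 in the authors' table, 0.32 with the added percentile, 0.26 and 0.15 with the slide as a random and a fixed block, 0.35 with the replicate block, 0.35 without Smn1deltaSKM myofibers 1 to 3, 0.48 within scan day 2 and 0.33 to 0.45 with a mouse left out. Signs turned for *Sod1* (-0.023 with quantile normalisation, -0.037 in the authors' table), *Cat* (-0.11 and -0.14, and -0.12 with normexp), *Sod2* and *Prdx5* (-0.15 and -0.51 with the slide fixed) and *Gpx4* (0.099 within scan day 2). With a mouse left out, *Gpx1* ranged from -0.89 to 0.38 and *Gpx4* from -0.16 to 0.099.

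Against WT, Smn1deltaSKM+AFS had 3 members called with myofibers as replicates, 2 with the mouse as a random block and 0 to 3 with a mouse left out. The median was 0.016 with quantile normalisation, 0.049 with centring, -0.28 with the mean of a gene's probes, 0.11 with the added percentile and -0.17 to 0.062 with a mouse left out. Signs turned for *Cat* (0.00418 with quantile normalisation, 0.024 with centring, 0.12 with normexp, 0.087 with the added percentile), *Txn2* (0.099, 0.088, 0.22 and 0.15, and 0.10 in the authors' table), *Txnrd2* (0.029 with quantile normalisation, 0.074 with centring, 0.025 in the authors' table, 0.14 with the added percentile), and, with the mean of a gene's probes, *Sod2* (-0.23) and *Prdx6* (-0.048). With a mouse left out, *Cat* ranged from -0.37 to 0.17, *Gpx1* from -0.84 to 0.19, *Prdx6* from -0.023 to 0.29, *Txn2* from -0.12 to 0.047 and *Txnrd2* from -0.22 to 0.11. Apart from the settings that leave arrays out, the cause of these moves was not tested.

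Over all genes, 3656 were called between Smn1deltaSKM and WT, 2316 of them lower. The counts were 9082 with myofibers as replicates, 5910 with the mouse and 1811 with the slide as a random block, 2375 with the replicate block and 7230, 1372 and 1633 without Smn1deltaSKM mouse 1, 2 or 3. Of those called, 1325 of 3121 were lower with centring and 853 of 2802 with the added percentile. The mouse numbers pair no animals across groups, and the deviations of same-numbered mice correlated between -0.0650 and 0.308 over 16513 genes. With the replicate block the members' median was -0.40, *Prdx3* differed by -1.49 (limma adjusted p = 0.0343) and *Sod1* by -1.14 (adjusted p = 0.0512) between Smn1deltaSKM and WT.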
